A study of Mus musculus with 32 samples.

Results

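Ctnnb1, Hmga2 and Chaf1a encode a Wnt effector, a chromatin protein and a histone chaperone subunit, and each had 1 clone among the 570 of 15247 clones that could be named. The 3 genes were selected on the contrast in which they are described below, from the clones listed for a lower ratio of heavy polysomal to total RNA in mouse fibroblasts overexpressing the cap-binding protein eIF4E. Their polysomal values are therefore a description without a test, and only the total RNA arrays, which had no part in the selection, are tested.

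β-Catenin, the product of Ctnnb1, joins cadherins to the actin cytoskeleton at adherens junctions and, when Wnt signalling stops its degradation, enters the nucleus and activates transcription with TCF/LEF factors. HMGA2 is an AT-hook protein that bends AT-rich DNA, is abundant in embryonic and transformed cells, and is a classic target of let-7 microRNAs. CHAF1A is the large subunit of chromatin assembly factor 1 (CAF-1), which deposits histones H3 and H4 behind the replication fork together with CHAF1B. eIF4E binds the 5′ cap of mRNAs and recruits them to the ribosome, and mRNAs on heavy polysomes carry many ribosomes.

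The cells were the 3T3-tTA-eIF4E line, an NIH 3T3 derivative in which removal of tetracycline switches on eIF4E, and its parental line 3T3-tTA, which carries the tetracycline-controlled transactivator without the eIF4E gene. Induced cells of both lines had been without tetracycline for 5 h and uninduced cells had been kept with it. One comparison set induced against uninduced total RNA within a line, and the other set pooled heavy polysomal RNA of induced cells against total RNA. Each of the 4 combinations of line and RNA comparison had 4 Mouse 15K3 two-colour cDNA arrays, 2 in each dye orientation, made from 2 RNA extractions, and every clone was printed as 2 adjacent spots that were deposited as separate samples. Arrays are named by their first sample: T1 to T7 are the total RNA of 3T3-tTA, T9 to T15 the total RNA of 3T3-tTA-eIF4E, P1 to P7 the polysomal RNA of 3T3-tTA-eIF4E and P9 to P15 that of 3T3-tTA. All values are log2 ratios of induced over uninduced or of polysomal over total RNA, averaged over the 2 spots. Each condition represents a single cell line, and nothing states that the 2 extractions came from separate cultures, so p-values measure the spread between extractions only. For P1 to P7 the labels give uninduced cells as the source of the reference and the methods give induced cells, and the methods were followed.

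Because eIF4E acts at the 5′ cap, the annotated starts of the 3 genes are shown. The 15 bases before each RefSeq start (GRCm38.p6) are in lower case and the first 15 transcribed bases in capitals, which is where a 5′ terminal oligopyrimidine sequence would begin. Ctnnb1 (chr9:120933400-120960507) has 2 annotated starts, whereas Hmga2 (chr10:120361268-120476469, minus strand) and Chaf1a (chr17:56040416-56068026) have 1 each.
Ctnnb1, chr9:120933385-120933414, plus strand: ccgcccctcgtcctcGCGCGGCGGAACGCT
Ctnnb1, chr9:120933563-120933592, plus strand: cggtgggcgccgagcCGTCAGTGCAGGAGG
Hmga2, chr10:120476455-120476484, minus strand: gagcgtcccagtaccCGCAACTCCCGAGCC
Chaf1a, chr17:56040401-56040430, plus strand: ggcagcagaagtgacACCGGTGGGAGGCGG
None of the 4 starts began with a C followed by 4 pyrimidines, a form found at 2.51% of 32851 annotated mouse starts (823 starts). The first 50 transcribed bases were rich in G and C. They held 78.0% G and C at both Ctnnb1 starts, 72.0% at Chaf1a and 64.0% at Hmga2, against a median of 56.0% over all starts. Which start is used in these cells was not measured.

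The clones were H3031E05 for Ctnnb1, H3040E06 for Hmga2 and H3087E05 for Chaf1a. The names deposited beside the rows of values did not belong to them, so each clone's row was found by matching its difference between the lines, to 6 digits, to the one printed for it in the authors' own list, where 543 of 554 clones matched exactly 1 row. The polysomal difference of the 3 genes thus served to find their rows as well as to choose them, and it is no independent evidence. The 3 clones of Eif4e stood between 2.75 and 3.79 in total RNA of 3T3-tTA-eIF4E and between -0.02 and 0.06 in 3T3-tTA. Their rows were found by this same total RNA difference, so that its size is no check of the labels. Of the 48 scanned spots of 6 fibroblast markers (Col1a2, Bgn, Dcn, Serpinf1, Itgb1 and Crtap), 45 were at least 1.5 times as bright as local background in a channel, which 81.4 to 94.6% of all spots were on the scanned arrays, so that nothing is read from it about the cell type. After every array had been turned by its dyes, arrays of the same condition with opposite dyes still had correlations from -0.61 to 0.14 across clones, so the orientations are given apart below. The number of arrays and of extractions limits the precision of all values.

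The ratio of heavy polysomal to total RNA of Ctnnb1 was lower in the eIF4E line than in its parental line. Its log2 polysomal/total ratio in 3T3-tTA-eIF4E was 0.00 on P1, -1.06 on P3, -0.15 on P5 and -0.68 on P7, a mean of -0.47 ± 0.49 (SD, n = 4 arrays). In 3T3-tTA it was 0.70 on P9, 0.76 on P11, 0.50 on P13 and 1.37 on P15, a mean of 0.83 ± 0.37 (SD, n = 4 arrays). The lowest parental array lay above the highest array of the eIF4E line, and P1 and P5 of the latter lay near 0. The 2 spots of Ctnnb1 disagreed in sign on P1 (-0.32 and 0.33) and in size on P15 (1.85 and 0.88). In the deposited values the difference was -1.30, a 2.47-fold lower ratio. Its size is uncertain, because the Cy5 signal of the polysomal RNA was 1.05 and 0.73 times local background at the spots on P15 and 0.25 times at 1 spot on P3. With background correction by normexp, possible on P3, P7, P11 and P15 only, the difference was -0.57, against -1.93 in the deposited values of those arrays. The difference was -1.15 on the arrays with polysomal RNA in Cy3 and -1.46 on those with polysomal RNA in Cy5.

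Hmga2 was below 0 on all 4 arrays of the eIF4E line and above 0 on all 4 parental arrays. The ratio was -0.27 on P1, -0.36 on P3, -0.35 on P5 and -0.51 on P7, the narrowest spread of the 3 genes in any polysomal set (mean -0.37 ± 0.10, SD, n = 4 arrays). In 3T3-tTA it was 0.34 on P9, 0.52 on P11, 0.24 on P13 and 1.08 on P15 (mean 0.55 ± 0.38, SD, n = 4 arrays). P15 was again the highest. The duplicate spots of Hmga2 had the same sign on all 8 polysomal arrays and lay at most 0.34 apart, on P15 (0.91 and 1.25). The ratio was 1.89-fold lower in the eIF4E line (log2 difference -0.92), with -0.86 in the Cy3 orientation and -0.98 in the Cy5 orientation. If the reference on P1 to P7 came from uninduced cells, as the labels state, the difference would be -1.44, because Hmga2 had a mean of 0.52 in induced over uninduced total RNA of that line.

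Chaf1a differed from the other 2 genes in that its ratio lay near 0 in the eIF4E line and only the parental arrays departed from 0. In 3T3-tTA-eIF4E it was 0.00 on P1, 0.23 on P3, 0.18 on P5 and -0.03 on P7 (mean 0.10 ± 0.13, SD, n = 4 arrays). In 3T3-tTA it was 0.38 on P9, 0.50 on P11, 1.21 on P13 and 2.19 on P15 (mean 1.07 ± 0.83, SD, n = 4 arrays). Again all parental arrays were the higher ones, but the parental values split by dye, with a mean of 0.44 in the Cy3 orientation and 1.70 in the Cy5 orientation. In the deposited values the difference between the lines was -0.97 (1.96-fold lower) over all arrays, -0.37 in the Cy3 orientation and -1.58 in the Cy5 orientation. The size is uncertain here too, because on P15 the Cy3 signal of the total RNA was 1.37 and 1.24 times local background. On P7, in the eIF4E line, Cy3 was 1.13 and 0.97 times background and Cy5 1.25 and 1.53 times. The value near 0 on P7 therefore says little about the RNA. On P13 the 2 spots were 2.37 and 0.04, a distance larger than that of 97.9% of clones on this array. Whether the ratio of any of the 3 genes moved through its polysomal or its total RNA cannot be told from a ratio.

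**Figure D1:**
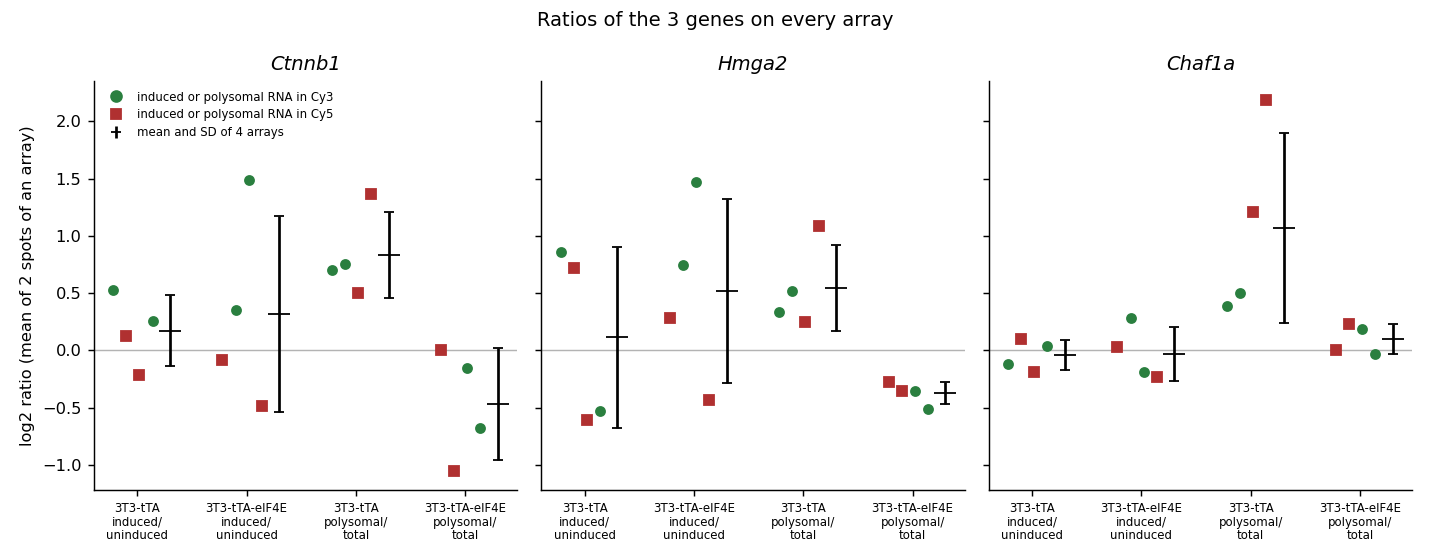
Log2 ratio of each gene on each array (points; circles, induced or polysomal RNA in Cy3; squares, in Cy5), with the mean and SD of the 4 arrays of a condition as a horizontal mark and bar. In the polysomal/total columns the 4 arrays of 3T3-tTA-eIF4E lie below the 4 arrays of 3T3-tTA for all 3 genes, whereas the induced/uninduced columns of the lines overlap.

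In each of the 3 genes all 16 pairings of an eIF4E-line array with a parental array had the lower value in the eIF4E line. Arrays of the lines did not overlap in this direction for 0.61% of all clones (93 of 15247). Since the genes were selected on this contrast, nothing is read from their count. The list from which they were taken has 242 clones with a row here.

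The place of a clone on the array moved with this contrast. The arrays were printed in 48 grids of 650 spots, and the median difference between the lines over the clones of a grid ranged from -0.34 to 0.22, with 22.8% of the variance of the difference lying among grid means. Grid 35, which holds the clones of Ctnnb1 and Chaf1a, had the lowest median of all, -0.34, and grid 47, which holds Hmga2, ranked 6 from the lowest with -0.20. Grid 35 held 26 and grid 47 held 12 of the 242 listed clones, against a median of 1 per grid. The 5 grids with most of them held 53.3% of the listed clones and 10.5% of all clones. Within grid 35 all arrays of the eIF4E line were lower than all parental arrays for 13 of 319 clones (4.08%), and within grid 47 for 9 of 317 (2.84%). In total RNA the grid medians of the difference lay between -0.08 and 0.07.

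**Figure D2:**
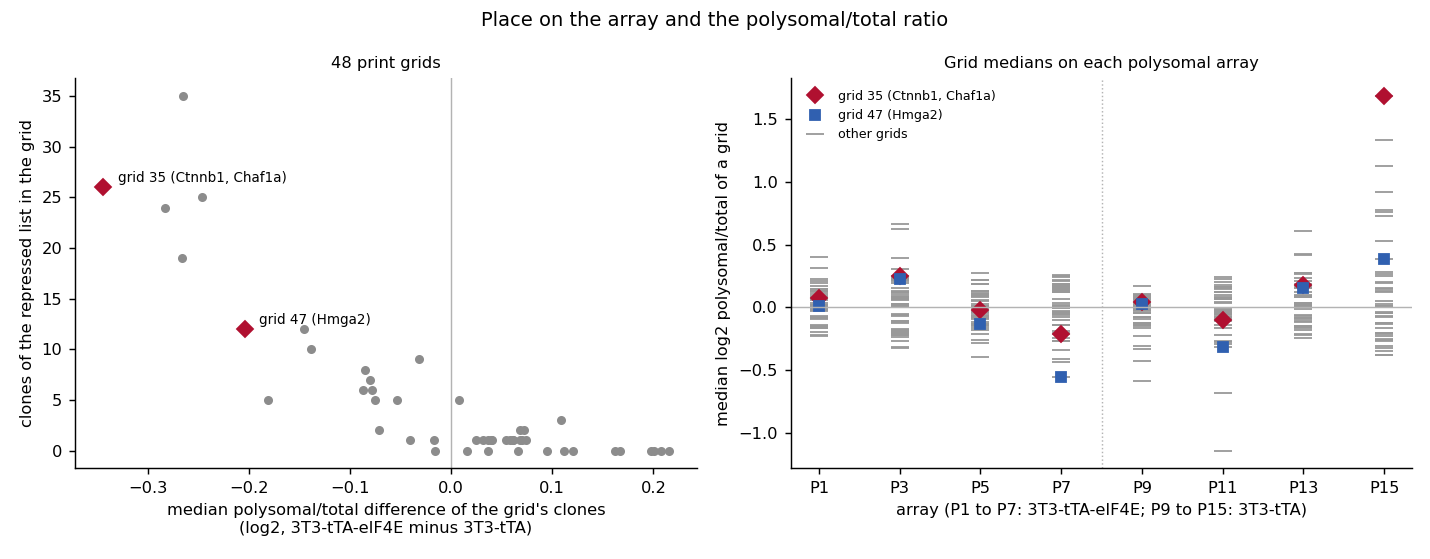
Left, the number of listed clones with a lower polysomal/total ratio in each of the 48 print grids against the median difference between the lines over all clones of the grid (log2). Right, the median log2 polysomal/total ratio of each grid on each polysomal array; grid 35 stands at 1.68 on P15, the highest of all grids there, and between -0.21 and 0.25 on the other 7 arrays.

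On P15 the median log2 ratio of grid 35 was 1.68, so that Chaf1a, at 2.19, stood 0.51 above the median of its neighbours and Ctnnb1, at 1.37, stood at -0.32 relative to it. On the other 7 polysomal arrays the median of grid 35 lay between -0.21 and 0.25. Hmga2 stood 0.70 above its grid on P15 and, in the eIF4E line, close to it on P7 (0.04 above), where the grid median was -0.55.

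Relative to the grid medians the 3 genes kept their direction with smaller differences. With each array centred on its grid medians, an alternative added once the values were known, the difference was -0.88 for Ctnnb1 (1.84-fold lower), -0.75 for Hmga2 (1.68-fold lower) and -0.55 for Chaf1a (1.46-fold lower). The arrays of the lines then stayed apart for Hmga2 and Chaf1a, whereas for Ctnnb1 the parental array P15, at -0.32, fell among those of the eIF4E line. After this centring 0.551% of all clones had arrays that did not overlap, with the eIF4E line lower. Without P15 the differences were -1.10 for Ctnnb1, -0.76 for Hmga2 and -0.62 for Chaf1a before centring, and -1.04, -0.61 and -0.56 after it, in the same order. The part of the grids in the difference between the lines was not tested.

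**Figure D3:**
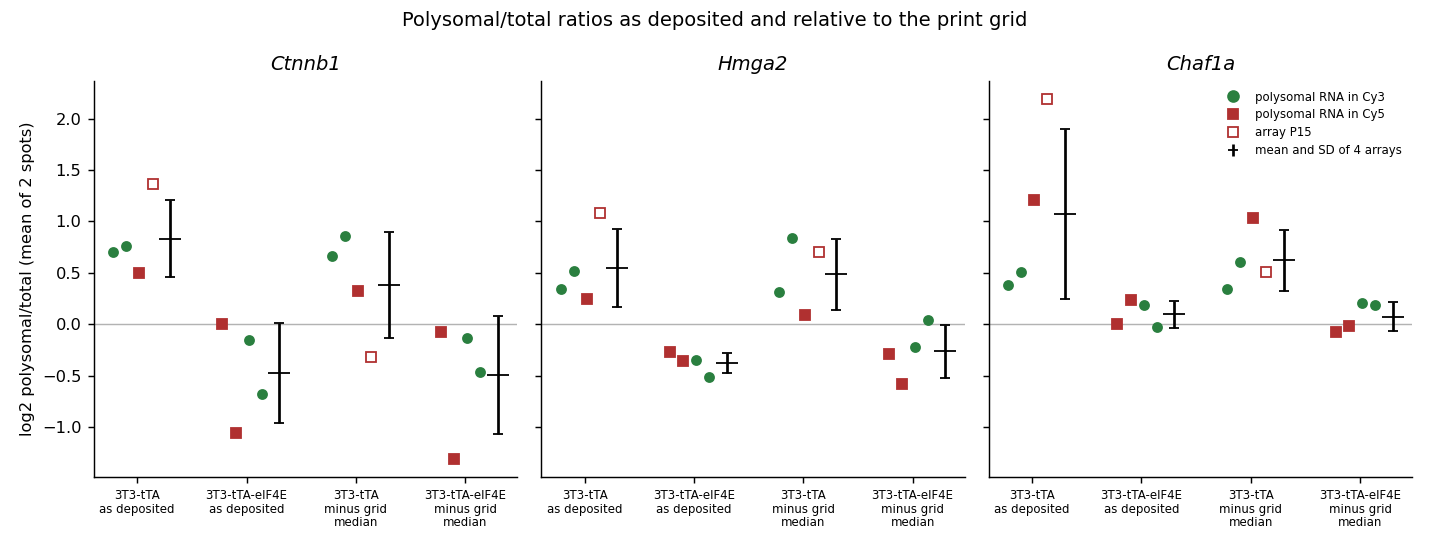
Log2 polysomal/total ratio of each gene on the 8 polysomal arrays as deposited (left columns) and minus the median of its print grid (right columns), with mean and SD of 4 arrays; open squares are P15. Chaf1a on P15 moves from 2.19 to 0.51 and Ctnnb1 on P15 from 1.37 to -0.32, while Hmga2 stays apart between the lines.

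How well the spots were measured can be seen on P3, P7, P11 and P15, for which scanner intensities were deposited. Over all spots of these arrays, 81.4 to 94.6% were at least 1.5 times as bright as local background in a channel and 50.8 to 72.8% in both. All 8 spots of Hmga2 reached this limit in a channel and 6 of them in both. Its Cy5 signal was 2.25 to 6.18 times background, and in Cy3 its lowest value was 1.22 times background, on P15. All 8 spots of Ctnnb1 reached the limit in a channel and 3 in both.

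Chaf1a was near background in Cy3 on every scanned array, at 0.97 to 1.64 times it. Its Cy5 signal was also low on P7 (1.25 and 1.53 times background) and on P11 (1.27 and 1.96 times). Of its 8 spots, 7 reached 1.5 times background in a channel and 2 in both. On P15, where its ratio was highest and Cy5 held the polysomal RNA, its Cy5 intensities were 4410 and 3059 over backgrounds of 331 and 280. On P11, with polysomal RNA in Cy3, its Cy5 intensities were 420 and 658 over backgrounds of 330 and 336. The spots of grid 35 as a whole had a median Cy5 signal of 10.4 times background on P15, against 4.72 for the median grid.

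Ctnnb1 lay in a patch of high Cy5 background on P15. Its spots there read 5365 and 3633 in Cy5, the channel of the polysomal RNA, over local backgrounds of 5133 and 4949, whereas the median background of grid 35 was 395. On P3, too, 1 of its spots read 1118 in Cy5 over a background of 4530. The other scanned Cy5 values of Ctnnb1 were 883 to 1235 over backgrounds of 185 to 689. The deposited ratios contain no background subtraction, so the value of 1.37 on P15 holds a Cy5 signal that was not above its surroundings.

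**Figure D4:**
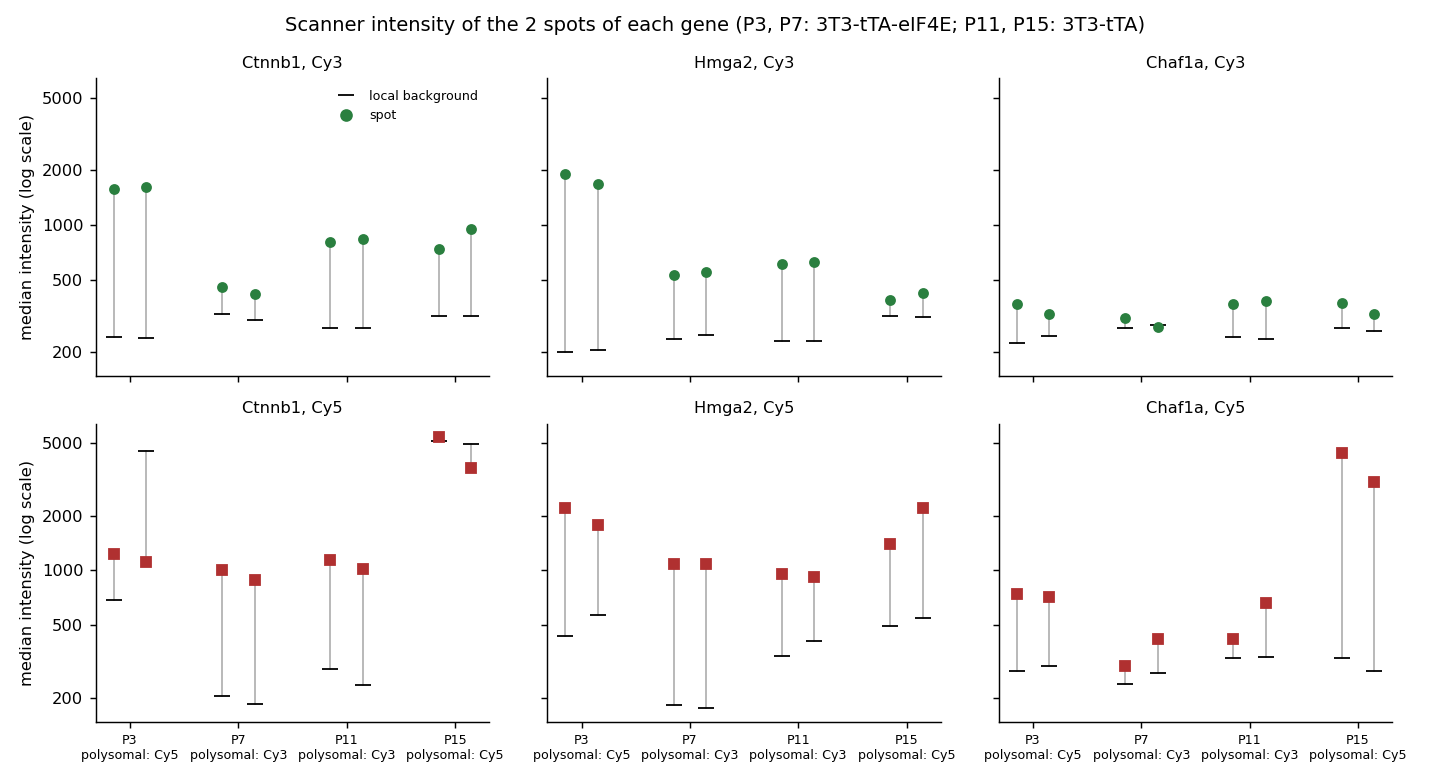
Median scanner intensity of the 2 spots of each gene (coloured points) and their local background (black marks) on the 4 scanned polysomal arrays, on a log axis, Cy3 above and Cy5 below. Chaf1a lies close to background in Cy3 on all 4 arrays and is low in Cy5 on P7 and P11. The Cy5 background of Ctnnb1 reaches its spots on P15 and exceeds 1 of them on P3.

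On these 4 arrays alone, normalization changed the size of the differences. From the deposited values they were -1.93 for Ctnnb1, -1.24 for Hmga2 and -1.24 for Chaf1a. Normexp background correction gave -0.57, -0.83 and -1.13, and loess within each grid gave -1.16, -0.40 and -0.26. On the means of the lines all 3 genes remained lower in the eIF4E line under each. Single arrays crossed with loess within grids. The spots of Hmga2 were then 1.12 and 1.21 on P7, above 0.81 and 0.90 on P11 and 0.41 and 0.69 on P15. Those of Ctnnb1 were -0.23 and -0.19 on P7 against 0.18 and -0.89 on P15. Those of Chaf1a were 0.46 and -0.12 on P7 and -0.05 and 0.40 on P15. The mean of Ctnnb1 in 3T3-tTA turned to -0.50 with normexp, and the mean of Hmga2 in 3T3-tTA-eIF4E turned to 0.30 with loess within grids, so that the side of 0 on which a gene lay in one line depended on the normalization.

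In total RNA none of the 3 genes was called as changed by induction of eIF4E. A call needed an adjusted p under 0.1, from limma on extraction means, and a change of at least 1.3-fold. In the comparison of the lines 0 of 15247 clones were called (0%), 68 had an unadjusted p under 0.05, and limma with arrays as replicates called 3. The test also did not call the 3 clones of the induced Eif4e gene, whose differences were 2.69 to 3.75 (adjusted p from 0.438 to 1.00, limma), so that the absence of a call says little about the 3 genes and their intervals are given instead.

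Ctnnb1 in 3T3-tTA was 0.52 on T1, 0.12 on T3, -0.22 on T5 and 0.26 on T7 (mean 0.17 ± 0.31, SD, n = 4 arrays). In 3T3-tTA-eIF4E it was -0.08 on T9, 0.35 on T11, 1.49 on T13 and -0.49 on T15 (mean 0.32 ± 0.85, SD, n = 4 arrays). T13 stood above the other 3, and it was also the array with the widest spread over all clones (SD 0.55, against 0.26 to 0.37 on the other 7). The difference between the lines was 0.15 (standard error 0.28, 95% interval -0.57 to 0.87, adjusted p = 1.00 from limma). Without T13 it was -0.17. The orientations disagreed in sign, with 0.53 in Cy3 and -0.24 in Cy5.

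Hmga2 in 3T3-tTA split by array and not by dye, with 0.86 on T1 and 0.72 on T3 against -0.60 on T5 and -0.53 on T7. T1 and T7 had the induced RNA in Cy3 and T3 and T5 in Cy5, so that a high and a low value occurred in each orientation. In 3T3-tTA-eIF4E it was 0.29 on T9, 0.75 on T11, 1.47 on T13 and -0.44 on T15 (mean 0.52 ± 0.80, SD, n = 4 arrays). These values lay on both sides of 0 in both lines, and their ranges overlapped. The difference of 0.40 (standard error 0.50, 95% interval -0.88 to 1.69, adjusted p = 1.00 from limma) was higher than that of 99.4% of clones, with an interval too wide to give its sign. It was 0.94 in the Cy3 orientation and -0.13 in the Cy5 orientation. Without T1 and T3 it was 1.08, and without T5 and T7 it was -0.28.

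Chaf1a was the steadiest of the 3 in total RNA. It lay between -0.19 and 0.10 in 3T3-tTA (mean -0.04 ± 0.13, SD, n = 4 arrays) and between -0.23 and 0.28 in 3T3-tTA-eIF4E (mean -0.03 ± 0.24, SD, n = 4 arrays). The difference was 0.01 (standard error 0.15, 95% interval -0.37 to 0.39, adjusted p = 1.00 from limma), a range within 1.31-fold in either direction.

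Within each line the 3 genes had adjusted p-values of 0.907 to 0.992 for induced over uninduced RNA, from limma. There 2 clones were called in 3T3-tTA-eIF4E (0.0131%), of which 1 was an Eif4e clone, itself listed for total RNA, and the other is not named in the lists used here. In 3T3-tTA 0 clones were called (0%). Total RNA arrays of one line all lay above those of the other for 0.918% of clones, and for none of the 3 genes.

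**Figure D5:**
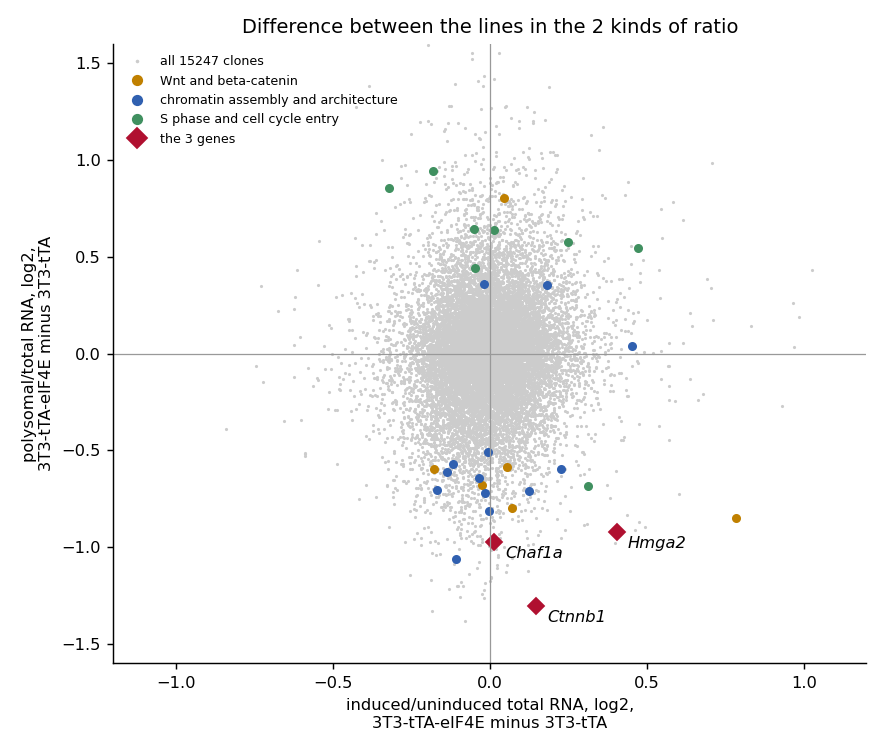
Difference between the lines (log2, 3T3-tTA-eIF4E minus 3T3-tTA) in polysomal/total RNA (vertical) against that in induced/uninduced total RNA (horizontal) for 15247 clones, with the 3 genes as diamonds and listed genes of 3 related groups in colour; a few clones beyond the axes, Eif4e among them, are not shown. Ctnnb1, Hmga2 and Chaf1a lie at -1.30, -0.92 and -0.97 on the vertical axis and at 0.15, 0.40 and 0.01 on the horizontal one.

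The 27 clones of related genes have a row here because the authors listed them, 24 for the polysomal contrast, 2 for the total RNA contrast (Cdk8 and 1 of 2 H2az1 clones) and 1 for both (Cks1b). Their differences in the contrast that listed them are no independent evidence. Since 0% of all clones were called between the lines in total RNA, the absence of calls in the groups below says nothing about them. Of 6 genes grouped under Wnt and β-catenin, 0 were called in total RNA in either direction (0% of all clones). Among them, Ctnnbl1 is named for its likeness to β-catenin, which does not make it a part of the pathway. The 5 listed for the polysomal contrast alone had total RNA differences from -0.18 to 0.07 (median 0.04, against -0.01 over all clones). Cdk8, a kinase of the Mediator module, stood at 0.79 in total RNA, on which it was listed, and had the lowest polysomal difference of this group, -0.85. Apc, the scaffold of the complex that degrades β-catenin, differed by -0.80 in polysomal RNA and 0.07 in total RNA. Fbxw11, an F-box protein that marks phosphorylated β-catenin for degradation, differed by -0.68 and -0.03. The ligand gene Wnt6 alone of the 6 had a higher polysomal/total ratio in the eIF4E line, by 0.80. Its clone lies in grid 26, whose median difference was 0.21. The others lie in grids with medians from -0.34 to -0.07.

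Of 13 clones of 12 genes of chromatin assembly and architecture, 0 were called in total RNA (0% of all clones). The 12 clones listed for the polysomal contrast alone had total RNA differences from -0.17 to 0.23 (median -0.02), and the H2az1 clone listed for total RNA stood at 0.45. Their polysomal differences were below 0 for 10 and above 0 for 3, from -1.06 to 0.36, whereas 51.8% of all clones lay above 0. The 10 lower clones all lie in grids whose median difference was below 0 (-0.34 to -0.14). The 3 higher ones lie in grids with a median above 0 (0.01 to 0.21). The part of the grids in these signs was not tested. The lowest difference was that of Chaf1b, the partner of CHAF1A in CAF-1. It stood at 0.39, -0.03, 0.09 and -0.47 on P1, P3, P5 and P7, and at 0.22, 0.27, 1.38 and 2.35 on P9, P11, P13 and P15, the same order of parental arrays as Chaf1a. The Chaf1b clone also lies in grid 35. Relative to the grid its values on P9, P11, P13 and P15 were 0.18, 0.38, 1.21 and 0.66. Those of Chaf1a were 0.34, 0.61, 1.03 and 0.51, so that the order of the arrays then differed. The highest polysomal difference of the group was that of Dnmt3a, a DNA methyltransferase, at 0.36. Ctcf, an architectural DNA-binding protein in grid 47 like Hmga2, differed by -0.70.

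Of 8 genes of S phase and entry into the cell cycle, 0 were called in total RNA (0% of all clones). The 7 listed for the polysomal contrast alone had total RNA differences from -0.32 to 0.31 (median -0.05), and Cks1b, listed for both contrasts, stood at 0.47. Their polysomal differences were above 0 for 7, the opposite side from the 3 genes, and below 0 for Timeless alone (-0.68), a protein of the replication fork. The highest was Rpa1, the large subunit of the single-strand DNA-binding protein RPA, at 0.95. All 8 were listed on this contrast, where 301 listed clones lay above 0 and 242 below it. Over all clones 51.8% lay above 0. The group was not split into genes that promote and genes that restrain entry, and nothing is read from the count of 7. Polysomal arrays of the lines did not overlap for 3 of the 27 related clones, those of Ctcf and Morf4l2 (eIF4E line lower) and Rpa1 (eIF4E line higher), against 1.34% of all clones in either direction. After centring on the grids this held for 0 of the 27 and for 1.24% of all clones, and nothing is read from these counts, since those 3 clones were listed on this contrast. Morf4l2 was named after its values had been seen.

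The genes were also compared by their pattern over arrays, with the dye term removed, among 570 clones named through the lists. Over all 16 arrays the clones most like Ctnnb1 were Dync1i2 (r = 0.92), Atp6v1a (0.91) and Hmgcs1 (0.86), and those most like Hmga2 were Gspt1 (0.84), Atp6v1a (0.82) and Hdlbp (0.80). Those most like Chaf1a were Tomm20 (0.96), Chaf1b (0.94) and Bub3 (0.93). Nearly all named clones were listed for the polysomal contrast, and Chaf1b and Bub3 share grid 35 with Chaf1a, as Hdlbp shares grid 47 with Hmga2. Between Chaf1a and Chaf1b the correlation was 0.96 over the 8 polysomal arrays and 0.24 over the 8 total RNA arrays. With the dye term removed and the arrays centred on the shared grid 35, it was 0.89 over the 8 polysomal arrays.

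Over the 8 total RNA arrays alone the order was different. Ctnnb1 was then most like Rps24 (r = 0.98), Eif1 (0.98) and Rpl3 (0.98), Hmga2 most like Ftl1 (0.99), Timeless (0.97) and Supt5 (0.94), and Chaf1a most like Tcof1 (0.89), Rer1 (0.88) and Gimap4 (0.80). Ctnnb1 and Hmga2 had a correlation of 0.79 with each other over 16 arrays and 0.77 over the 8 total RNA arrays, and Chaf1a had 0.53 with Ctnnb1 and 0.35 with Hmga2 over 16 arrays and -0.26 and 0.11 over the latter. Since all 3 genes were selected for a lower value of the eIF4E line on 8 of the 16 arrays, their correlations over 16 arrays are partly fixed by the selection. These arrays share RNA extractions and 2 cell lines, and with 8 points 11.4% of all clones were more like Ctnnb1 than Hmga2 was.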

How the data were processed

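Labels gave the condition and dyes of 32 samples, which are the 2 spots of 16 arrays. The authors scanned the arrays (GenePix), normalized each whole array with the lowess of limma, neither by print tip nor after subtracting background (no version is given in the sources used here), and deposited log2 ratios of Cy3 over Cy5. For 4 polysomal arrays the deposited scanner intensity of each spot and its background was also used; the log2 ratio recomputed from it correlated with the deposited one at 0.994 to 1.00. For the other 12 arrays the same direction was assumed. Rows were named through the numerators of 2 supplementary lists, matched to 6 digits, and 0 rows carried the clone's own name. Rows were placed on spots and print grids by their values on P3, P7 and P11. Only the correlation on P15 (0.994) is therefore apart from the placing. Gene coordinates and sequences are from RefSeq (GRCm38.p6), which held a symbol for all 27 related clones and the 3 genes.

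Ratios were turned by dye, duplicate spots averaged, a dye term removed per clone by least squares, and extraction means compared by limma 3.58.1 in R 4.3.3. Which arrays share an extraction is not stated, so each of the 4 possible assignments was fitted and the largest p kept, with Benjamini-Hochberg adjustment over 15247 clones. An SD is over 4 arrays, which are not independent. Alternatives were arrays or spots as replicates, centring, scaling, single spots, single orientations, leaving out arrays or extractions, thresholds, a filter on dim clones (no spot at 1.5 times background on the scanned arrays) and normexp with an offset of 50. Centring on print grids, loess within them and a paired fit were added after the data had been seen. The authors' own test paired the samples by dye and experimental set. The sets are not given, so arrays of the lines were paired within each dye orientation in all 4 possible ways and the largest p was kept. The 3 genes and the related groups were chosen with earlier results of these data known. Named are the 3 genes, at most 4 genes of each group (extremes and partners), the 3 most alike clones, Eif4e and 6 fibroblast markers, and Morf4l2 was added after its values had been seen. Ctnnbl1 is named only for its place in its group. Figures were drawn with matplotlib 3.10.9 in Python 3.11.15.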

Additional observations from a re-analysis of the deposited data

Results flagged for a closer look

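Hmga2 lay on opposite sides of 0 in the polysomal arrays of the lines, with all 4 arrays of 3T3-tTA-eIF4E below 0, all 4 of 3T3-tTA above 0 and a difference of -0.92. Hmga2 was selected on this contrast, and the difference was not tested. Relative to its print grid P7 lay at 0.04, above 0, and loess within grids on the scanned arrays turned the mean of 3T3-tTA-eIF4E to 0.30. No array of any of the 3 genes stood apart from the other 3 of its condition by Dixon's criterion for groups of 4, which chance passes in about 1 of 20 groups.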

How the results depend on the processing

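The mean polysomal/total ratio of all 3 genes was below that of the parental line under each of the 30 alternatives. For many of these the sign was fixed, because all 16 array pairings already had it. Single orientations, left-out extractions and the scanned arrays alone could not turn it. Arrays or spots as replicates left the difference unchanged. The count of 30 is therefore no independent evidence. With loess within grids, single arrays of the lines crossed for Hmga2 and Ctnnb1. None of the 81 alternative total RNA differences of the 3 genes was called (adjusted p from 0.737 to 1.00, limma). The cause was not tested where values moved. For the polysomal/total difference these were, for Ctnnb1, -1.93 from the scanned arrays alone and -0.57 with normexp on them, for Hmga2, -1.24 from the scanned arrays alone, -0.40 with loess within grids on them, -0.61 with grid centring without P15 and -1.44 with the reference read as the labels give it, and for Chaf1a, -0.37 in the Cy3 and -1.58 in the Cy5 orientation and -0.26 with loess within grids. Within 3T3-tTA Ctnnb1 moved to 0.38 with grid centring, -0.50 with normexp and 0.34 with loess within grids, and within 3T3-tTA-eIF4E to -1.08 with normexp. Within 3T3-tTA-eIF4E Hmga2 moved to -0.26 with grid centring, with and without P15, 0.30 with loess within grids and -0.89 with the labels' reference. Leaving out an array or a possible extraction gave polysomal differences of -1.70 to -0.91 (Ctnnb1), -1.18 to -0.67 (Hmga2) and -1.25 to -0.62 (Chaf1a), and a mean of Chaf1a in 3T3-tTA-eIF4E of -0.12 to 0.32.

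In total RNA the sign of the difference turned in the Cy5 orientation for Ctnnb1 (-0.24), Hmga2 (-0.13) and Chaf1a (-0.057), with scaling for Ctnnb1 (-0.0031) and with the second spot only for Chaf1a (-0.090). Leaving out arrays or extractions gave -0.24 to 0.53, -0.28 to 1.08 and -0.17 to 0.20, in the same order. Within the lines the Cy5 orientation gave -0.29 (3T3-tTA-eIF4E) and -0.049 (3T3-tTA) for Ctnnb1 and -0.076 (3T3-tTA-eIF4E) for Hmga2. Chaf1a turned to 0.045 in the Cy3 orientation and 0.0085 with grid centring in 3T3-tTA-eIF4E and to 0.035 with the second spot in 3T3-tTA. Leaving out arrays or extractions turned Ctnnb1 within -0.067 to 0.70 (3T3-tTA-eIF4E) and -0.0039 to 0.33 (3T3-tTA), Hmga2 within -0.57 to 0.79 (3T3-tTA), and Chaf1a within -0.21 to 0.15 (3T3-tTA-eIF4E) and -0.15 to 0.067 (3T3-tTA).

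The count of clones called between the lines went from 0 to 3 with arrays as replicates, 4 with spots as samples, 2 with the second spot, 4 in the Cy5 orientation and 0 to 4 without single arrays or extractions, 4 without T13 and 3 without T11 and T15 or T1 and T3. In 3T3-tTA-eIF4E it went from 2 to 7 with arrays as replicates, 185 with spots as samples, 0 with median centring, 4 with scaling, 5 with the second spot, 0 in the Cy3 and 1060 in the Cy5 orientation, 0 at an adjusted p under 0.05 and 0 to 5 without single arrays or extractions. In 3T3-tTA it went from 0 to 183 with spots as samples and to 0 to 3 without single arrays or extractions, 3 without T1 and T3. Where leaving out an extraction left a line with 1, that line was assumed to vary like the other. With arrays paired within each dye as a replicate block, 0 clones were called between the lines at the largest p over 4 pairings (92 at an unadjusted p under 0.05) and 0 or 1 in a single pairing, and the 3 genes had adjusted p-values of 1.00 (limma). Low signal over background limits Chaf1a, at 0.97 to 1.64 times it in Cy3 and down to 1.25 times in Cy5. It also limits Ctnnb1, down to 0.25 times in Cy5.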
